A study of Mus musculus with 11 samples.

Results

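The genes described here encode the aminoacyl-tRNA synthetases, the enzymes that attach each amino acid to its transfer RNA. They were taken by name as 34 of the 24421 genes in the count table, 19 for cytosolic enzymes and 15 for mitochondrial enzymes, whose symbols end in 2. The rule names genes by their product and uses no measured value. Of the 34 symbols, 18 matched the gene table directly and 16 matched through an older symbol without the final 1 (Aars for Aars1, for example). All 34 were among the 13711 genes that passed the filter on low counts and were tested.

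Most synthetases recognise 1 amino acid and its tRNAs, and the charged tRNA is what the ribosome uses to read the genetic code. Mammals keep separate nuclear genes for the cytosolic and the mitochondrial enzyme of most amino acids, and the mitochondrial enzymes serve translation of the few proteins encoded in mitochondrial DNA. Several cytosolic synthetases sit together in the multisynthetase complex, and the transcription factor ATF4, which acts when amino acids run short, is known to drive many cytosolic synthetase genes in other cells.

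The RNA came from natural killer (NK) cells of the spleen that carry Ly49H, an activating receptor that recognises mouse cytomegalovirus (MCMV), and that were sorted as TCRb and CD3e negative and NK1.1, DX5 and Ly49H positive. All groups came from mixed bone marrow chimeras on the C57BL/6 background, with MCMV infection as the treatment. Cells deficient in LDHA, the lactate dehydrogenase A subunit (KO), were CD45.2, and wild-type cells (WT) were CD45.1, so the genotype and the congenic marker cannot be told apart. The labels do not name the allele, promoter or Cre driver behind the deficiency. The 11 libraries fall by title into WT D0 (2 libraries, replicates 2 and 3), WT D2 (3), KO D0 (3) and KO D2 (3), each described as an individual mouse. The label for days after infection reads 2 for every library, so D0 and D2 are used as the titles' terms. For the WT libraries the genotype label lists either genotype, so their group rests on the title.

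Ldha itself was at 91.1 to 115 CPM (counts scaled to a common library size) in the 6 KO libraries and at 563 to 3101 CPM in the 5 WT libraries, which matches the titles. Total counts ran from 19452460 to 27992092 per library. The scaling uses edgeR's TMM factors, so values are shares of each library's RNA. In bulk samples like these, fewer cells of a type and less RNA per cell cannot be told apart, and neither can a change in total RNA per cell be seen. NK markers summed to 11250 to 12756 CPM at D0 and 41362 to 50145 CPM at D2, where Gzmb made up most of the sum. Single NK markers went both ways. Of the 10, 2 rose and 5 fell from D0 to D2 in WT, and 4 rose and 5 fell in KO. In KO 3 were lower than in WT at D2 and 1 at D0, beside 14.5% and 0.0583% of all tested genes. Ncr1 was at 640 to 742 CPM in KO D0 and at 1408 and 1208 CPM in WT D0. The 8 T cell markers summed to at most 31.8 CPM and the 6 B cell markers to at most 56.8 CPM in any library, with Cd3e at most 0.995 CPM. Myeloid markers summed to 661 to 800 CPM at D0, 224 to 237 in WT D2 and 285 to 352 in KO D2, mostly from Itgax, which NK cells also express. The 4 ILC1 markers found in the table summed to 21.6 to 32.5 CPM at D0 and 43.7 to 58.3 CPM at D2. The part of these markers in the differences below was not tested. Erythroid markers ranged from 38.9 to 926 CPM, and all 4 groups overlapped.

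A second property of the libraries bears on several results. For each gene the highest GC content of any 200-base window between transcript start and stop codon was taken as its peak GC. The level of tested genes with a peak GC of at least 70%, relative to the rest, was -0.51, -0.42 and -0.43 on the log2 scale in KO D2 replicates 1, 2 and 3 (each relative to the mean of all libraries). It was -0.15 in WT D2 replicate 1 against 0.22 and 0.12 in replicates 2 and 3. It was 0.09 in KO D0 replicate 1 against 0.30 and 0.29 in the other KO D0 libraries, and 0.19 and 0.25 in WT D0. GC-rich transcripts were thus lowest in KO D2, and WT D2 replicate 1 and KO D0 replicate 1 were low within their groups.

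Promoter sequence is shown first for the cytosolic genes that carry the C/EBP-ATF response element (CARE, searched as TGATGNAA on both strands), because ATF4 acts through this element. In windows of 300 bases around the transcript start, CARE was present in 5 of 12 cytosolic genes that had a window, in 0 of 13 mitochondrial genes, and in 3.97% of all 32851 windows. The E-box CACGTG was present in 4 of the 12 cytosolic genes (Aars1, Farsb, Iars1 and Tars1), in 1 of the 13 mitochondrial genes (Ears2) and in 7.15% of all windows. No CARE match in a synthetase gene overlapped an E-box match. The member counts are per gene and the shares over all windows are per window, so the units differ. A match describes the letters in the window and not a bound site. Each line gives 30 bases of the gene's own strand from RefSeq (GRCm38.p6), with CARE or its reverse complement in capitals.
Aars1, chr8:111033840-111033869: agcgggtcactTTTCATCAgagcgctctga
Gars1, chr6:55037960-55037989: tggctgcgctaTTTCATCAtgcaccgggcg
Iars1, chr13:49682126-49682155: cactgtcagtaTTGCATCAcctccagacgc
Tars1, chr15:11399655-11399684: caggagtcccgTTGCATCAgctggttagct
Yars1, chr4:129189895-129189924: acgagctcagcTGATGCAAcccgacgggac

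The element shown began 10 bases into the transcript in Aars1, 30 and 15 bases before the start in Gars1 and Tars1, and 8 and 4 bases into the transcript in Iars1 and Yars1. Of these 5 genes, 4 rose from D0 to D2 in both genotypes. This is not particular to genes with CARE, since 19 of 19 cytosolic genes rose in WT and 17 of 19 in KO. Gars1 rose in WT and fell in KO, though both calls depended on the fit (values below). Because Gars1 is the exception among these 5, more of its window is given. It runs from 250 bases before to 30 bases after the start on the plus strand, with CARE in capitals.
Gars1, chr6:55037751-55038030: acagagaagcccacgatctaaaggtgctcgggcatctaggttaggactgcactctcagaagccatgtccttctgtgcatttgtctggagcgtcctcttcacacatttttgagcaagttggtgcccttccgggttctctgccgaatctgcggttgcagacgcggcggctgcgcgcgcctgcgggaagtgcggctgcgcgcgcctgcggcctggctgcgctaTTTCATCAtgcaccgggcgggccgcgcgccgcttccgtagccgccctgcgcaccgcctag

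The first comparison asked how the synthetase genes changed from D0 to D2 in WT cells. All 19 cytosolic genes rose (edgeR quasi-likelihood test, adjusted p from 1.35e-07 to 0.0369), where 27.5% of all tested genes rose and 26.0% fell (53.5% in either direction). Their median log2 fold change was 1.34, against -0.07 over all tested genes, and single genes ran from 0.49 for Sars1 (seryl) to 2.01 for Iars1 (isoleucyl). In KO cells 17 of the 19 rose, with a median of 1.32 against -0.20 over all genes, where 27.0% of tested genes rose and 34.5% fell (61.4% in either direction). The exceptions in KO were Gars1 (glycyl), which fell, and Vars1 (valyl), whose change of -0.40 ± 0.21 (SE) missed the threshold with an edgeR adjusted p of 0.124.

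**Figure D1:**
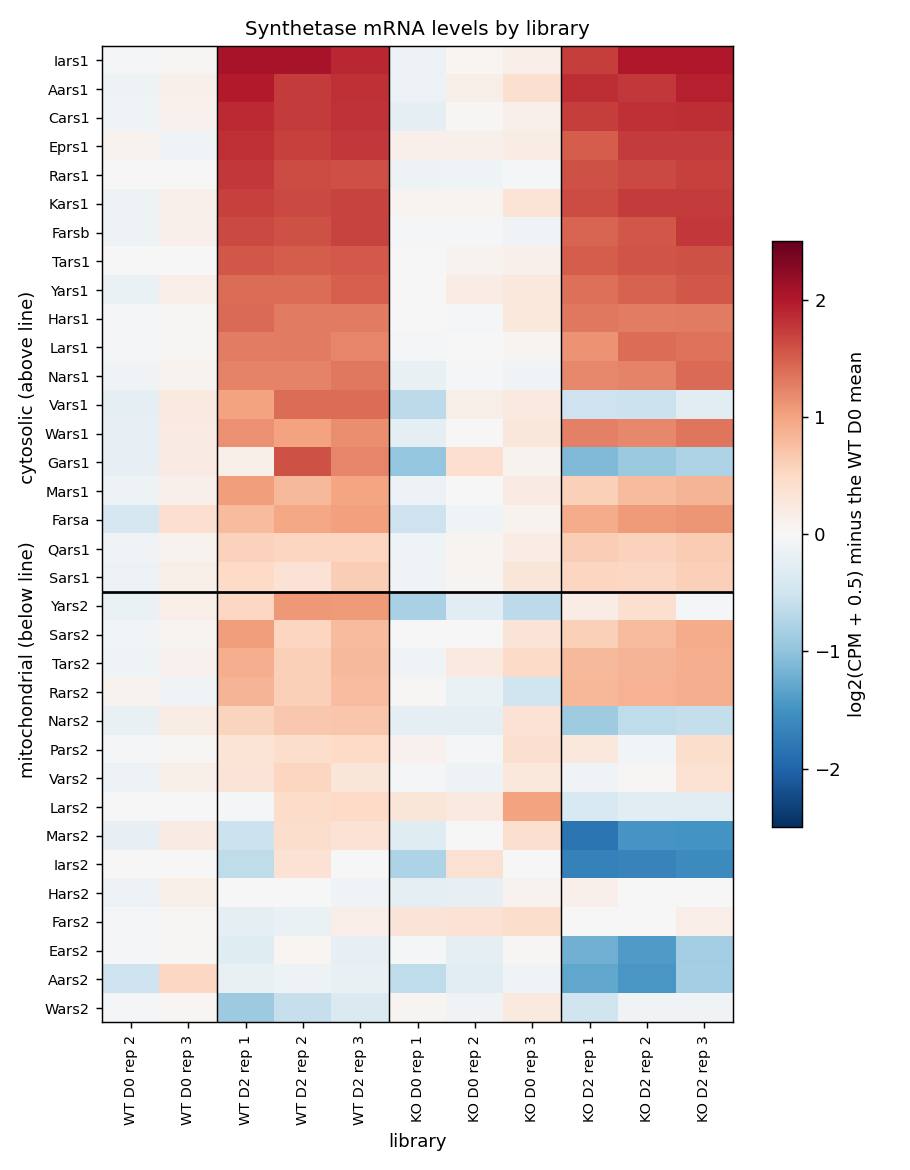
Level of each of the 34 synthetase genes (rows, ordered within each class by the WT change) in each of the 11 libraries (columns), as log2(CPM + 0.5) minus the mean of the 2 WT D0 libraries, from blue (lower) to red (higher). The cytosolic rows above the line are red in WT D2 and, except Gars1 and Vars1, in KO D2, while the mitochondrial rows below it are mixed.

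Iars1, the gene with the largest rise, was at 82.5 and 86.6 CPM in WT D0 and at 355, 353 and 315 CPM in WT D2. In KO it was at 75.8, 87.5 and 94.4 CPM at D0 and at 283, 341 and 341 CPM at D2. Every D2 library stood above every D0 library, and the log2 fold changes were 2.01 ± 0.14 in WT and 1.91 ± 0.12 in KO (SE; edgeR adjusted p = 1.95e-07 and 6.64e-08). Part of this count is uncertain, because 1656 bases of the Iars1 transcript match the processed pseudogene Gm4849 at 96.0% identity.

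Rars1 (arginyl) had the smallest p of the cytosolic genes in both genotypes. It was at 64.2 and 65.0 CPM in WT D0, 222, 201 and 200 CPM in WT D2, 59.0, 60.3 and 62.5 CPM in KO D0, and 196, 203 and 212 CPM in KO D2. Libraries within a group lay close together, the days did not overlap, and the log2 fold changes were 1.68 ± 0.11 and 1.75 ± 0.10 (SE; edgeR adjusted p = 1.35e-07 and 2.66e-08). Tars1 (threonyl) went from 114 and 116 CPM to 327 to 339 CPM in WT and from 114 to 126 CPM to 327 to 347 CPM in KO, again without overlap.

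Eprs1 encodes a fused glutamyl and prolyl enzyme of the multisynthetase complex. It was at 127 and 114 CPM in WT D0 and 426, 394 and 412 CPM in WT D2, and in KO it went from 131 to 136 CPM to 344 to 407 CPM. Its log2 fold changes were 1.77 ± 0.12 and 1.53 ± 0.11 (SE; edgeR adjusted p = 1.72e-07 and 1.09e-07). Cars1 (cysteinyl), the least abundant cytosolic gene per kilobase of coding sequence at D0 (15.8 CPM per kb in WT), went from 36.3 and 42.6 CPM to 133 to 144 CPM in WT and from 33.1 to 43.3 CPM to 132 to 143 CPM in KO.

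The other catalytic members of the multisynthetase complex rose by different amounts. In WT the log2 fold changes were 1.68 for Kars1 (lysyl), 1.27 for Lars1 (leucyl), 0.95 for Mars1 (methionyl) and 0.55 for Qars1 (glutaminyl), and in KO they were 1.55, 1.29, 0.72 and 0.56. Qars1 is read beside the mitochondrial Ears2 below, because mitochondria make glutaminyl-tRNA from glutamyl-tRNA. It was at 76.4 and 86.8 CPM in WT D0 and 122, 118 and 118 CPM in WT D2, with edgeR adjusted p = 0.00209. Without WT D0 replicate 2 the change was 0.40 with adjusted p = 0.0538, and with that library left out the single WT D0 library is assumed to vary like the other groups.

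The 3 scaffold genes of the complex rose in both genotypes, where 27.5% of all tested genes rose in WT and 27.0% in KO. Eef1e1, a small scaffold subunit, was at 21.7 and 21.1 CPM in WT D0 and 145, 151 and 145 CPM in WT D2, a larger log2 fold change (2.78 ± 0.22 SE, edgeR adjusted p = 4.22e-07) than that of any synthetase, and in KO it changed by 2.87 ± 0.19. Aimp2 changed by 1.62 in WT and 1.53 in KO, and Aimp1 by 1.24 and 1.08.

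Kars1 encodes both the cytosolic and the mitochondrial lysyl enzyme from the same gene. It was at 84.9 and 101 CPM in WT D0, 303, 293 and 299 CPM in WT D2, 96.8, 96.9 and 118 CPM in KO D0, and 289, 313 and 315 CPM in KO D2. The days did not overlap and the genotypes did, and the KO minus WT difference at D2 was 0.04 ± 0.11 (SE, log2).

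Wars1 (tryptophanyl), which is known to be induced by interferon-gamma, was at 108 and 144 CPM in WT D0, 277, 252 and 281 CPM in WT D2, 106, 127 and 153 CPM in KO D0, and 298, 287 and 317 CPM in KO D2. Every KO D2 library was above every WT D2 library, yet the difference of 0.16 ± 0.14 (SE, log2) did not pass (edgeR adjusted p = 0.594). Its rise of 1.10 in WT and 1.23 in KO lay below the cytosolic median. Of 8 other interferon-gamma response genes, 7 rose in each genotype, beside 27.5% of all tested genes in WT and 27.0% in KO. Gbp3, which encodes a guanylate-binding protein, rose by 1.97 ± 0.18 in WT and 2.22 ± 0.16 in KO (SE). At D2 Gbp2 (0.49 ± 0.14) and Nlrc5 (0.39 ± 0.11), a regulator of MHC class I genes, were higher in KO than in WT (edgeR adjusted p = 0.0273 and 0.0265). They are 2 of the 8, beside 1.61% of all tested genes.

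The smallest cytosolic rises depended on 1 library. Sars1 was at 155 and 192 CPM in WT D0 and 244, 222 and 265 CPM in WT D2, and it changed by 0.49 ± 0.14 (SE, edgeR adjusted p = 0.0119). Without WT D0 replicate 2 the change was 0.28 (adjusted p = 0.221), and without WT D2 replicate 3 it was 0.36 (adjusted p = 0.0833). In KO its change of 0.45 missed the threshold without KO D0 replicate 1 (adjusted p = 0.065), KO D0 replicate 2 (0.0542) or KO D2 replicate 3 (0.0598). With the GC offset described below it was 0.21 (0.213).

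Farsa and Farsb encode the alpha and beta subunits of the cytosolic phenylalanyl enzyme, and they moved by different amounts. Per kilobase of coding sequence Farsa stood at 64.7 CPM and Farsb at 28.9 CPM in WT D0, and at 119 and 90.3 CPM in WT D2. The log2 fold changes in WT were 0.88 ± 0.22 for Farsa and 1.64 ± 0.14 for Farsb (SE), and in KO 1.20 ± 0.20 and 1.67 ± 0.12; the gap between the genes was not tested. Farsa was at 71.1 and 126 CPM in the WT D0 libraries, and without replicate 2 of that group its change was 0.46 (edgeR adjusted p = 0.104).

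**Figure D2:**
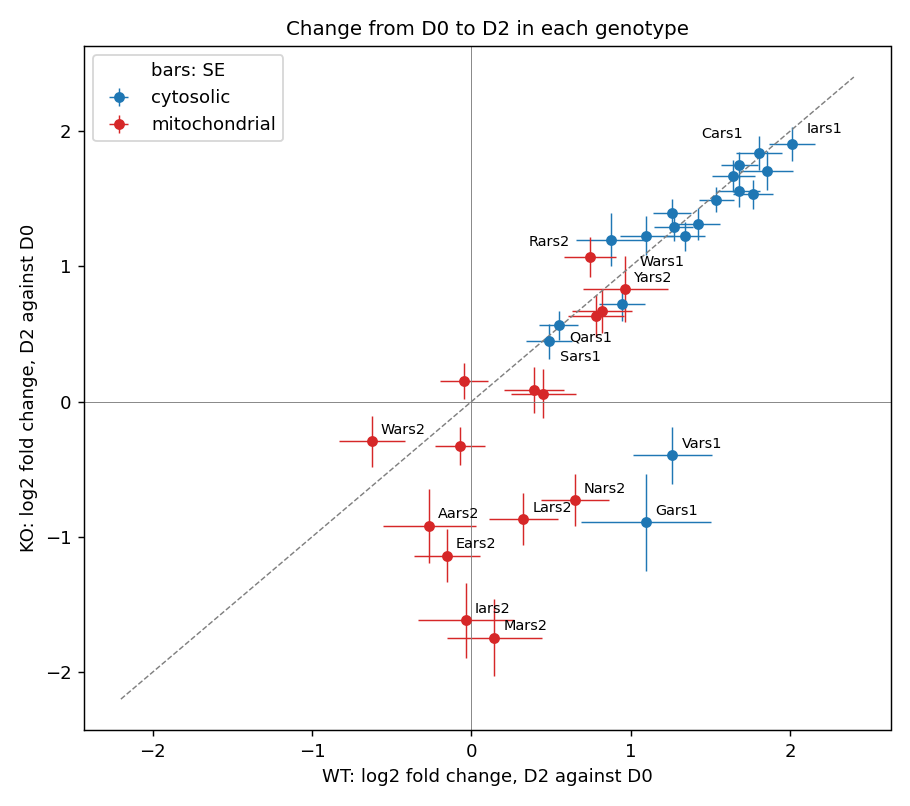
Log2 fold change from D0 to D2 in WT (x axis) and KO (y axis) for the 19 cytosolic and 15 mitochondrial genes, with SE bars and a dashed line of equal change. Cytosolic points lie near the line except Vars1 and Gars1, and Mars2, Iars2, Ears2, Lars2, Nars2 and Aars2 lie below it.

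The mitochondrial genes changed less and in both directions. In WT 5 of 15 rose and 1 fell, shares to be read beside the 27.5% and 26.0% of all tested genes, and their median log2 fold change was 0.33. In KO 4 rose and 6 fell, with a median of -0.29, beside 27.0% and 34.5% of all tested genes. With the GC offset described below, 4 fell in KO, where 3720 of 12819 genes fell, and the median was -0.0046. The falls of Aars2 (-0.25, edgeR adjusted p = 0.386), Ears2 (-0.37, 0.0965) and Nars2 (0.982) were then lost, and Fars2 passed as lower (-0.52, 0.00724). Vars2 then passed as higher in KO (0.56, edgeR adjusted p = 0.00567). In WT the offset added Pars2 (0.48, 0.0481) and Vars2 (0.49, 0.0233) as higher. Of all 12819 genes, 4191 rose in KO and 3937 in WT with the offset. In the main fit, the genes that rose in both genotypes were Rars2 (arginyl), Sars2 (seryl), Tars2 (threonyl) and Yars2 (tyrosyl). Nars2 (asparaginyl) rose in WT and fell in KO. Without WT D0 replicate 2, 3 mitochondrial genes passed as higher in WT, with Nars2 at 0.41 (edgeR adjusted p = 0.247) and Yars2 at 0.73 (0.11), and 2 as lower, since Aars2 then fell by 0.77 (0.0454).

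Rars2 was at 30.9 and 27.2 CPM in WT D0, 52.3, 43.9 and 49.7 CPM in WT D2, 29.5, 25.8 and 20.3 CPM in KO D0, and 51.7, 53.0 and 54.4 CPM in KO D2. No D2 library overlapped a D0 library, and the log2 fold changes were 0.74 ± 0.17 in WT and 1.07 ± 0.15 in KO (SE; edgeR adjusted p = 0.0021 and 3.76e-05). Tars2 went from 34.7 and 40.8 CPM to 56.8 to 71.5 CPM in WT and from 35.2 to 52.9 CPM to 66.0 to 70.9 CPM in KO. Sars2 went from 16.6 and 18.47 CPM to 25.8 to 36.4 CPM in WT and from 17.6 to 22.1 CPM to 26.8 to 33.8 CPM in KO.

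Yars2 was the least abundant member in WT D0 at 4.05 CPM per kb of coding sequence. It was at 5.0 and 6.5 CPM in WT D0, 8.4, 12.7 and 12.5 CPM in WT D2, 3.0, 4.6 and 3.4 CPM in KO D0, and 6.5, 7.7 and 5.5 CPM in KO D2. The KO values lay below the WT values on both days without overlap, and the rise was 0.96 ± 0.27 in WT and 0.83 ± 0.24 in KO (SE). With the GC offset described below the KO rise was 1.82 (edgeR adjusted p = 2.73e-06). In KO that rise missed the threshold without KO D0 replicate 1 (0.65, edgeR adjusted p = 0.0503) or KO D2 replicate 2 (0.66, 0.0577).

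Wars2, the mitochondrial tryptophanyl gene, was the one member that fell in WT. It was at 14.2 and 15.3 CPM in WT D0 and 7.6, 9.7 and 11.4 CPM in WT D2, a change of -0.62 ± 0.21 (SE, edgeR adjusted p = 0.0231), and without WT D0 replicate 3 the adjusted p was 0.0856. In KO it went from 15.4, 13.8 and 17.6 CPM to 10.3, 13.9 and 13.9 CPM, which overlap (-0.29 ± 0.19, adjusted p = 0.198).

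Lars2, the mitochondrial leucyl gene (chr9:123366927-123462675), stood far above the rest of its class. In WT D0 it had 1074 CPM per kb of coding sequence, against a class median of 11.8, and it held 90% of the summed CPM of the 15 genes. Stretches of its transcript match other loci (97 bases at 94.8% with AA474408 and 72 bases at 98.6% with Gm15564), so its level is reported as uncertain. It was at 2943 and 2867 CPM in WT D0, 2802, 4004 and 4115 CPM in WT D2, 3565, 3446 and 5818 CPM in KO D0, and 2223, 2399 and 2410 CPM in KO D2. The KO D2 libraries were the lowest of all 11, and the fall from D0 in KO was -0.87 ± 0.19 (SE, edgeR adjusted p = 0.0018).

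The median level per kilobase of coding sequence was lower for the 15 mitochondrial than for the 19 cytosolic genes in each group, with overlap between single genes. The medians were 11.8 and 41.2 CPM per kb in WT D0, 16.7 and 117 in WT D2, 12.3 and 42 in KO D0, and 8.28 and 103 in KO D2. Sars1 was the highest cytosolic gene on this scale at D0 (108 CPM per kb in WT and 115 in KO). At D2 it was Vars1 in WT (199) and Wars1 in KO (208).

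Enzymes for the same amino acid were set side by side in 16 pairs over 15 amino acids, with Farsa and Farsb both paired to Fars2 and Eprs1 paired to both Ears2 and Pars2. In WT the signed log2 fold change of the cytosolic gene lay above that of its mitochondrial partner in 15 of 16 pairs, with a median gap of 0.95. The exception was serine, where Sars2 rose by 0.82 and Sars1 by 0.49. In KO the cytosolic value lay above in 14 of 16 pairs, with a median gap of 1.52, and the exceptions were serine and valine (Vars1 -0.40, Vars2 0.09). The widest gaps were alanine in WT (Aars1 1.85, Aars2 -0.27) and isoleucine in KO (Iars1 1.91, Iars2 -1.62). Hars1 and Hars2 lie head to head and their transcripts share 195 bases on opposite strands. Whether counting used strand is not given in the sources used here, so their counts (1.34 and -0.05 in WT) may share reads.

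The genotypes were next compared at D0. Of the 19 cytosolic and 15 mitochondrial genes, 0 passed in either direction by edgeR or by DESeq2, and 0 and 3 had an unadjusted edgeR p under 0.05. Of all tested genes 0.0948% were higher and 0.0583% lower in KO. The medians were 0.03 in both classes. The largest differences were -0.63 ± 0.26 for Yars2 and 0.56 ± 0.22 for Lars2 (SE; edgeR adjusted p = 0.999 for both).

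At D2, 2 of 19 cytosolic genes (Gars1 and Vars1) and 7 of 15 mitochondrial genes (Aars2, Ears2, Iars2, Lars2, Mars2, Nars2 and Yars2) were lower in KO than in WT, and 0 were higher. The backgrounds were 14.5% of tested genes lower and 1.61% higher, so the cytosolic share lies near the background and the mitochondrial share above it. The medians were 0.01 for cytosolic and -0.28 for mitochondrial genes, against 0.01 for all tested genes. Without KO D2 replicate 1 or without KO D2 replicate 2, 4 mitochondrial genes passed. With same-numbered KO and WT libraries as a block within the day, the same 9 genes passed and Wars2 was higher in KO by 0.41 ± 0.13 (SE, edgeR adjusted p = 0.047). In that fit 2544 of all 13711 genes were lower and 900 higher.

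**Figure D3:**
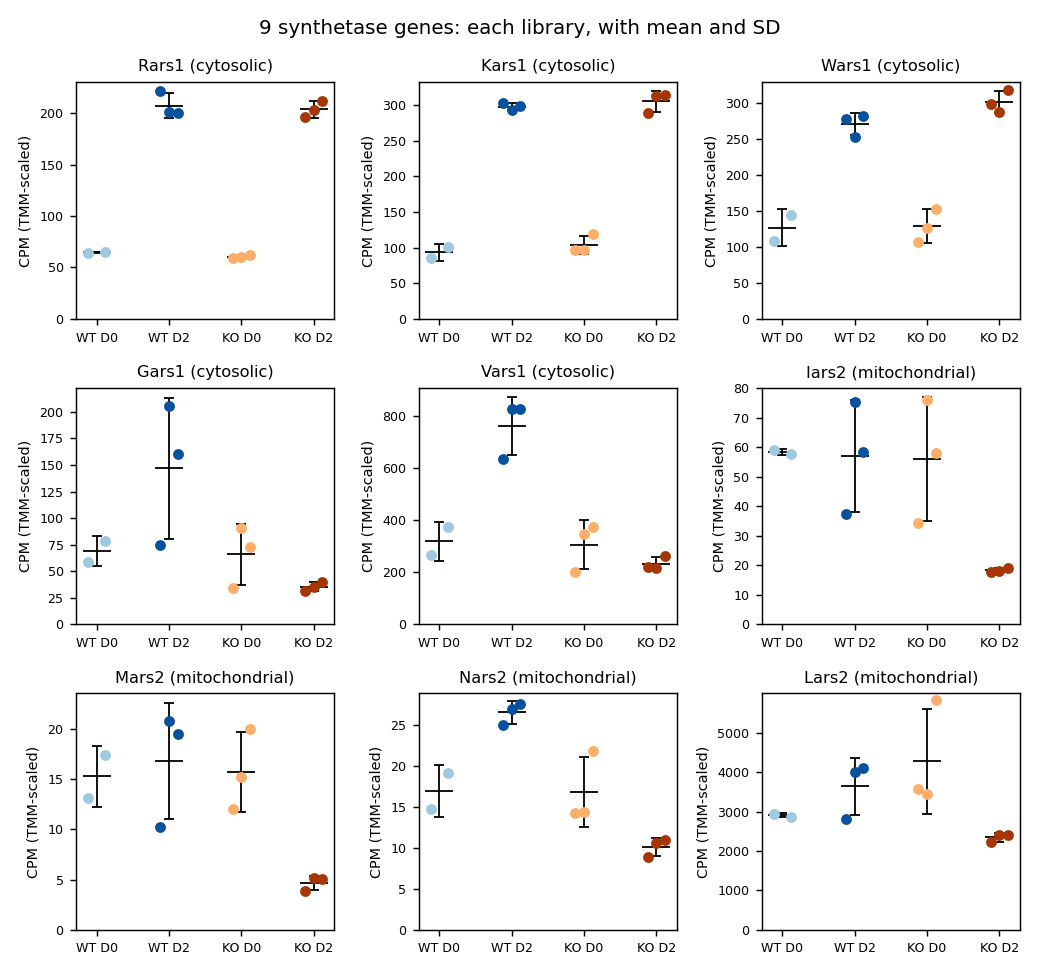
CPM of 9 synthetase genes in each library (points), with the group mean (bar) and SD (whiskers, 2 or 3 libraries), each panel with its own axis from 0. Rars1, Kars1 and Wars1 rise at D2 in both genotypes, whereas the KO D2 libraries of Gars1, Vars1, Iars2, Mars2, Nars2 and Lars2 lie below the WT D2 libraries.

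Gars1 (chr6:55038001-55079504) encodes both the cytosolic and the mitochondrial glycyl enzyme. It was at 58.7 and 78.8 CPM in WT D0, 74.9, 206 and 160 CPM in WT D2, 34.3, 90.8 and 72.4 CPM in KO D0, and 31.3, 35.3 and 39.7 CPM in KO D2. KO D2 lay below every WT library, and WT D2 replicate 1 overlapped WT D0. At D2 KO minus WT was -2.05 ± 0.37 (SE, edgeR adjusted p = 0.00184), and the KO mean was 24.1% of the WT mean. The changes over time were less firm. The rise of 1.10 ± 0.41 in WT lost its call when any of 8 single libraries was left out, among them WT D0 replicate 2 (0.84, adjusted p = 0.237) and WT D2 replicate 2 (0.78, adjusted p = 0.129). The fall of -0.89 ± 0.36 in KO (adjusted p = 0.045) lost its call without KO D0 replicate 2 (-0.64, 0.173), KO D0 replicate 3 (-0.88, 0.078) or any of the KO D2 libraries (-0.87 to -1.04, 0.0604 to 0.107). It was also lost with RLE scaling (0.0671) and no filter (0.103), and turned to 0.12 (0.711) with the GC offset described below. The WT rise was also lost with no filter (0.123) and the 5 CPM filter (0.0558).

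Vars1 (chr17:35000907-35016329), the valyl enzyme, was at 265 and 372 CPM in WT D0, 635, 826 and 828 CPM in WT D2, 200, 345 and 373 CPM in KO D0, and 220, 215 and 261 CPM in KO D2. It rose without overlap in WT, by 1.26 ± 0.25, whereas KO D2 overlapped KO D0. At D2 KO minus WT was -1.72 ± 0.22 (SE, edgeR adjusted p = 0.000252), and the KO mean was 30.4% of the WT mean.

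Mars2 (chr1:55237177-55240058) had the largest mitochondrial difference. It was at 13.09 and 17.4 CPM in WT D0, 10.2, 20.8 and 19.5 CPM in WT D2, 12.1, 15.1 and 20.0 CPM in KO D0, and 3.9, 5.1 and 5.0 CPM in KO D2. The KO D2 libraries were below all others, and WT D2 replicate 1 was the next lowest. At D2 KO minus WT was -1.85 ± 0.28 (SE, edgeR adjusted p = 0.000718), and the fall from D0 in KO was -1.74 ± 0.28 (adjusted p = 0.000147).

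Iars2 (chr1:185286642-185329419), the mitochondrial isoleucyl gene, showed a similar order of libraries. It was at 59.0 and 57.5 CPM in WT D0, 37.3, 75.2 and 58.3 CPM in WT D2, 34.2, 76.0 and 58.1 CPM in KO D0, and 17.8, 18.1 and 19 CPM in KO D2. KO D2 was lowest, with WT D2 replicate 1 and KO D0 replicate 1 between it and the rest. At D2 KO minus WT was -1.64 ± 0.28 (SE, edgeR adjusted p = 0.0013). Annotated transcripts of Iars2 and Rab3gap2 share 2034 bases, those of Aars1 and Exosc6 1326, and Nars2 overlaps the antisense gene C230038L03Rik over 284, so these counts may be split.

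Nars2 (chr7:96950839-97064758) was at 14.7 and 19.1 CPM in WT D0, 24.9, 27.0 and 27.6 CPM in WT D2, 14.3, 14.3 and 21.8 CPM in KO D0, and 8.9, 10.6 and 10.9 CPM in KO D2. It moved in opposite directions without overlap, by 0.65 ± 0.21 in WT (SE, edgeR adjusted p = 0.0213) and by -0.73 ± 0.19 in KO (0.00536), and at D2 KO minus WT was -1.39 ± 0.19 (0.000427). The WT rise missed the threshold without WT D0 replicate 2 (0.41) or WT D2 replicate 3 (0.56, 0.0832). With the GC offset described below the KO change was -0.0046 (0.982), so the fall in KO was lost.

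Ears2, the mitochondrial glutamyl gene (chr7:122034162-122067094), was at 11.5 and 12.0 CPM in WT D0, 9.5, 12.2 and 10.1 CPM in WT D2, 11.3, 9.9 and 12.1 CPM in KO D0, and 4.8, 4.1 and 6.2 CPM in KO D2. KO D2 alone stood apart, at -1.07 ± 0.20 against WT (SE, edgeR adjusted p = 0.00207). Its product feeds the amidotransferase that makes mitochondrial glutaminyl-tRNA, and no gene of that group passed between genotypes at D2 (0 of 4 with the formylation enzyme Mtfmt by edgeR, 1 with an unadjusted p under 0.05). The background was 14.5% of tested genes lower and 1.61% higher. Qars1, the cytosolic glutaminyl gene, had a KO minus WT value of 0.07 ± 0.11 at D2.

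The calls of Aars2, Yars2 and Lars2 at D2 depended on single libraries. Aars2 (alanyl) was at 5.3, 4.7 and 7.4 CPM in KO D2 and 11.9, 12.5 and 12.1 CPM in WT D2 (-1.07 ± 0.27 SE, edgeR adjusted p = 0.0158), and it missed the threshold without KO D2 replicate 1 (0.0719) or 2 (0.0759). Yars2 (-0.77 ± 0.24, adjusted p = 0.0426) and Lars2 (-0.64 ± 0.19, adjusted p = 0.0414) each missed it when any KO D2 library, WT D2 replicate 2 or WT D2 replicate 3 was left out, with adjusted p from 0.0567 to 0.159. Lars2 also missed it without either WT D0 library (0.054 and 0.053). Under RLE scaling both missed it (0.0701 for Yars2 and 0.0754 for Lars2).

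The change from D0 to D2 was then compared between genotypes. Of 19 cytosolic genes 1 (Vars1), and of 15 mitochondrial genes 4 (Iars2, Lars2, Mars2 and Nars2), changed less or fell more in KO. Of all tested genes 5.72% were called lower and 0.124% higher (5.84% in either direction). The cytosolic share lies near this background and the mitochondrial share above it. The differences (KO minus WT) were -1.66 ± 0.32 for Vars1, -1.58 ± 0.41 for Iars2, -1.19 ± 0.29 for Lars2, -1.89 ± 0.41 for Mars2 and -1.37 ± 0.29 for Nars2 (SE; edgeR adjusted p from 0.0175 to 0.0415). Gars1 had the largest difference, -1.99 ± 0.54, which missed the threshold (adjusted p = 0.0506). When same-numbered libraries of a day formed a block, Gars1 (-2.202, adjusted p = 0.00247) and Ears2 (-0.97, 0.0384) passed as well. In that fit 1997 of all 13711 genes passed as lower and 619 as higher. KO D0 replicate 1 had no WT partner there, so the block fitted it by itself and KO D0 rested on replicates 2 and 3. Gars1 also passed without a block when KO D0 replicate 1 was left out (-2.30, edgeR adjusted p = 0.00821). Its gain is thus not particular to the block. Each of the 5 calls of the unblocked fit was lost when some single libraries were left out. Leaving out WT D2 replicate 3, KO D2 replicate 1 or KO D2 replicate 2 did so for all 5 genes (edgeR adjusted p from 0.0620 to 0.114). Over all tested genes the number called lower then went from 784 to 113, 118 and 115, in that order. Without WT D0 replicate 2 the differences were -1.42 for Vars1, -1.59 for Iars2, -1.20 for Lars2, -1.69 for Mars2 and -1.18 for Nars2. The calls are not read in that fit, because it leaves 1 WT D0 library.

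The genes lower in KO at D2 had GC-rich transcripts. Of the 12 members with a peak GC of at least 70%, 8 were lower, against 35.9% of the 4557 tested genes in that class. Of the 22 members under 70%, 1 (Lars2, peak GC 62.0%) was lower, against 3.82% of 8262 tested genes. The 4 members at or above 70% that did not differ were Aars1 (71.5%), Eprs1 (70%), Mars1 (70%) and Vars2 (71.0%). Across the 34 genes the difference at D2 and peak GC had a Spearman rho of -0.68, against -0.42 over 12819 tested genes, which is across genes that share libraries. The part of GC content in the differences was not tested by itself.

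**Figure D4:**
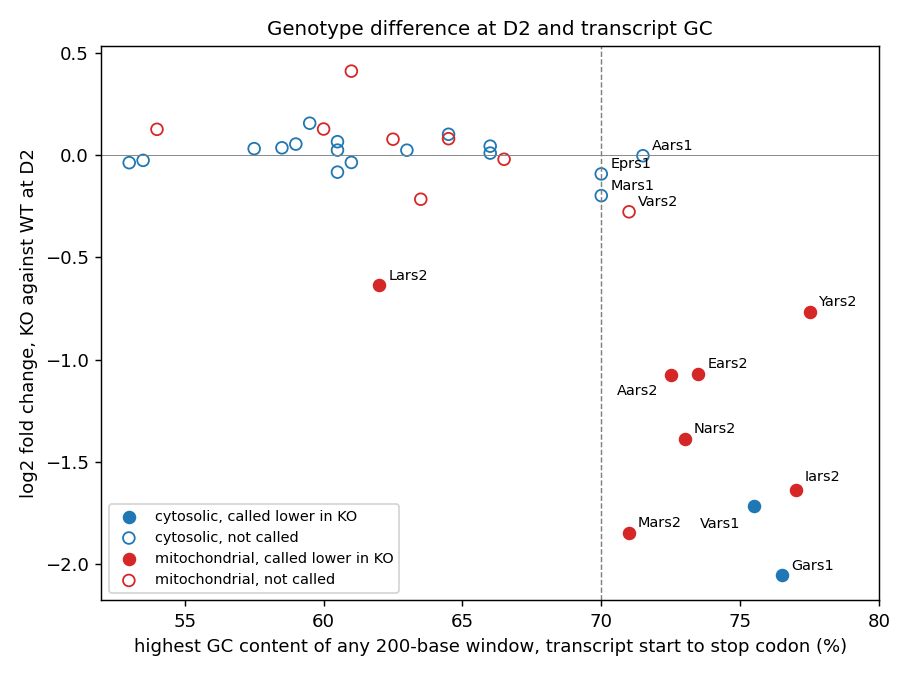
Log2 fold change of KO against WT at D2 (y axis) against peak GC, the highest GC content of any 200-base window from transcript start to stop codon (x axis), for the 34 genes, with called genes filled. Of the 9 filled points 8 lie at or right of the dashed line at 70%, and Lars2 lies left of it.

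When each library's trend of counts on peak GC was removed by an offset, 2 of 19 cytosolic and 4 of 15 mitochondrial genes were still lower in KO at D2. These were Gars1 (-1.22 ± 0.26), Vars1 (-0.97 ± 0.16), Mars2 (-1.48 ± 0.25), Iars2 (-0.83 ± 0.18), Nars2 (-0.83 ± 0.17) and Lars2 (-0.77 ± 0.19), with edgeR adjusted p from 0.00162 to 0.0172. Over all 12819 genes in that fit, 1157 were lower and 714 higher. The cytosolic share lies near the share of all genes lower, and the mitochondrial share above it. Aars2 (-0.56, adjusted p = 0.161) and Ears2 (-0.46, 0.137) missed the threshold, and Yars2 turned to 0.02 (0.976). With the offset, 0 members passed for the difference of the change, where the adjusted p for Lars2, Mars2 and Vars1 was 0.0561, 0.0616 and 0.0811. Of all 12819 genes, 117 passed as lower and 15 as higher. With the offset and the replicate block within a day together, Vars1 (-1.08, adjusted p = 0.00046), Iars2 (-0.92, 0.00434), Lars2 (-1.32, 0.00163), Mars2 (-1.59, 0.00121), Nars2 (-0.82, 0.0202) and Gars1 (-1.35, 0.00287) passed. In that fit 1184 of the 12819 genes passed as lower and 913 as higher. KO D0 replicate 1 again had no partner in the block. Under the offset Vars1 rose in KO by 0.56 ± 0.16 (adjusted p = 0.00766), and Gars1 in KO turned from -0.89 to 0.12 (0.711). With the offset 18 of 19 cytosolic genes rose in WT, Sars1 missing the threshold (0.35, adjusted p = 0.077), where 3937 of 12819 genes rose.

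Other genes of tRNA charging and translation were read from lists. Counts from these lists are to be read beside all tested genes. In WT 27.5% of those rose and 26.0% fell, and in KO 27.0% rose and 34.5% fell. At D2 14.5% were lower and 1.61% higher in KO than in WT. All 5 cytosolic elongation genes and all 4 mitochondrial elongation genes rose in both genotypes, and none of the 9 passed between genotypes at D2 (0 by edgeR, 0 with an unadjusted p under 0.05). Eef1g, a subunit of the exchange factor that reloads the tRNA-delivering elongation factor, rose by 1.67 ± 0.15 in WT and 1.43 ± 0.12 in KO (SE). Gfm1, a mitochondrial elongation factor G, rose by 1.41 ± 0.13 and 1.31 ± 0.12, and Tufm, the mitochondrial factor that delivers charged tRNA, by 1.41 and 1.32. Their direction was uniform, where that of the mitochondrial synthetases was mixed.

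Among 6 genes of trans-editing and peptidyl-tRNA recycling, 3 rose in WT, and in KO 1 rose and 1 fell, beside the shares of all tested genes given above. Aarsd1, which clears mischarged alanyl-tRNA, rose by 1.61 in WT and 1.39 in KO. Dtd2, a deacylase of D-aminoacyl-tRNA, was at 8.56 and 8.51 CPM in WT D0, 11.5, 13.3 and 13.7 CPM in WT D2, 9.93, 9.56 and 10.1 CPM in KO D0, and 3.84, 4.83 and 4.98 CPM in KO D2. It moved in opposite directions in the genotypes, and the difference of the change was -1.70 ± 0.25 (SE, edgeR adjusted p = 0.00774). Its peak GC was 63.5%, under the 70% line.

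Of 5 regulators of the amino acid response, Atf4 rose in WT by 0.36 ± 0.13 (SE, edgeR adjusted p = 0.0377) and changed by 0.24 in KO without passing (0.106). Ddit3, a pro-apoptotic factor of the response, fell in both genotypes (-1.33 and -1.11), Ppp1r15a fell in KO, and Trib3 rose in KO from under 1 CPM. Eif2ak4, the kinase GCN2 that senses uncharged tRNA, was lower in KO at D2 by -0.77 ± 0.16 (adjusted p = 0.00504, peak GC 72.5%). Of 12 response targets, 8 rose and 1 fell in WT and 7 rose and 3 fell in KO. Of all tested genes 27.5% rose and 26.0% fell in WT, and 27.0% rose and 34.5% fell in KO. Asns, asparagine synthetase, went from 0.36 and 0.32 CPM to 9.64 to 12.3 CPM in WT and from 0.32 to 0.56 CPM to 11.1 to 15.4 CPM in KO. Mthfd2 and Psat1, of mitochondrial folate and serine synthesis, rose by 3.64 ± 0.18 and 2.70 ± 0.17 in WT and by 3.21 ± 0.15 and 2.45 ± 0.14 in KO.

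At D2, 2 of the 12 targets were lower in KO, a share near the 14.5% of all tested genes. Both were amino acid carrier genes. Slc7a5, the light chain of a transporter of large neutral amino acids, was at 4.85 and 3.45 CPM in WT D0, 29.9, 70.9 and 53.0 CPM in WT D2, 4.49, 7.26 and 6.28 CPM in KO D0, and 18.0, 25.9 and 22.7 CPM in KO D2. It rose in both genotypes and was lower in KO at D2 by -1.21 ± 0.28 (SE, edgeR adjusted p = 0.00955). Slc3a2, its heavy chain, rose in WT by 0.55 ± 0.15 and fell in KO by 0.72 on the log2 scale, with a difference at D2 of -1.09 ± 0.13 (adjusted p = 0.000182). Their peak GC was 79.5% and 70.5%, and a part of GC content in these differences was not tested.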

How the data were processed

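RNA-seq counts of 11 libraries of sorted Ly49H+ NK cells were read as the authors deposited them, as whole-number counts per Entrez gene ID. Libraries were made from 2 ng of RNA with a SMART-seq kit and 12 cycles of PCR, per the labels' protocols, so copies of 1 molecule can be counted more than once. The submitters' processing notes name bcl2fastq 2.20.0.422, Trimmomatic 0.36, Salmon 0.13.1 (also listed as 13.1), DESeq2 1.22.2 and build mm10, without roles, and the counts may be rounded estimates. Of the IDs, 24387 matched RefSeq (GRCm38.p6), and the 34 unmatched ones made up no more than 0.0244% of any library.

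Counts were tested with edgeR 4.0.16 (quasi-likelihood, robust, TMM, filterByExpr) in R 4.3.3. All 11 libraries entered 1 fit of 4 group means without a block, with 7 residual degrees of freedom, and 5 contrasts were read. Calls used Benjamini-Hochberg adjustment over 13711 genes with a threshold of 0.05. SE came from the F statistic. The script was tested on simulated data first. DESeq2 1.42.0 was an alternative. Peak GC used GENCODE M21 transcripts with the longest coding sequence, and the GC offset was a spline with 5 degrees of freedom per library over 12819 genes. The members and lists were chosen with earlier results of these data known. Values by library were given for up to 4 called members per contrast, class and direction with the smallest p, Wars1, Gars1, Kars1, Qars1, Ears2, the most and least abundant member of each class, and up to 3 called genes per other list. Farsa, Aars2 and Sars1 were added after their values were seen.

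Same-numbered KO and WT libraries deviated together at D2 (correlations of deviations from group means 0.397, 0.372 and 0.247). Same-numbered libraries of different days did so too (0.391, 0.354 and 0.301 for KO D0 with WT D2, 0.182 and 0.261 for KO D2 with WT D0). These values therefore cannot show that libraries pair within a day. The block is given as an alternative, and the main calls do not use it. At D0 only 2 numbers are shared (0.0171 and 0.554). A few items are not reported here.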

Additional observations from a re-analysis of the deposited data

Results flagged for a closer look

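For 5 synthetase genes the change from D0 to D2 differed between KO and WT by the test of the difference itself (edgeR interaction term, call at an adjusted p under 0.05). On the log2 scale, KO minus WT, the differences were -1.66 for Vars1, -1.58 for Iars2, -1.19 for Lars2, -1.89 for Mars2 and -1.37 for Nars2. Of all tested genes 5.84% passed the same test. Of the 5 genes, 4 have a peak GC of at least 70%, and with the GC offset the differences were -0.90, -0.74, -1.27, -1.50 and -0.81 in the same order, with none past the threshold. With the offset and the replicate block within a day together, all 5 passed, at -1.08, -0.92, -1.32, -1.59 and -0.82. In that fit 1184 of all 12819 genes passed as lower and 913 as higher.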

How the results depend on the processing

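Alternatives were RLE scaling, DESeq2, no filter, a filter of 5 CPM, only the compared groups, replicate blocks, a GC offset, both together, and leaving out each library. Of the alternative values for the 2 classes, 541 kept their size within the rule and 59 did not. RLE scaling moved the median of all genes in KO D2 against D0 from -0.20 to -0.09, and the calls for KO against WT at D2 from 221 higher and 1986 lower to 440 and 1762.

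In WT, the cytosolic median was 1.215 with the 5 CPM filter and 1.5 with the GC offset and replicate block across days, where 8 mitochondrial genes were higher. In the latter fit 4159 of all 12819 genes were higher. In KO over time, cytosolic genes called lower were 0 with RLE, 0 with no filter, 2 with the 5 CPM filter, 2 with the replicate block across days, 0 with the GC offset and 0 with both. Of all genes, 4258 of 13711, 4818 of 18860, 3921 of 9396, 4932 of 13711, 3720 of 12819 and 3954 of 12819 were lower, in that order. The KO cytosolic median was 1.18 with the 5 CPM filter, and the KO mitochondrial median was -0.0046 with the GC offset and 0.0093 with the block added. For KO against WT at D2, 1 cytosolic gene (Aars1) was higher with the GC offset and either replicate block, and 1 mitochondrial gene was higher with the block within a day alone. With the offset and the block within or across days 1519 and 1072 of all 12819 genes were higher. With the block within a day alone 900 of 13711 were higher. Mitochondrial genes called lower were 4 with the GC offset and 4 with the block across days added, and the median was -0.050, -0.047 (block within a day added) and -0.051 (across days). Of all 12819 genes 1157 were lower with the offset and 1421 with the block across days added. For the difference of the change, cytosolic genes called lower were 2 with DESeq2, the 5 CPM filter, either replicate block, or either block with the GC offset, and 0 with the GC offset alone. The cytosolic median was -0.16 with the offset and block within a day. Mitochondrial genes called lower were 2 with RLE, 0 with the GC offset alone and 4 with the offset and either replicate block. Of all genes, 784 of 13711 were lower in the main fit, 475 with RLE and 117 of 12819 with the offset alone. With the offset and the block within or across days they were 1184 and 831 of 12819. They were 1069 with DESeq2, 917 of 9396 with the 5 CPM filter, and 1997 and 1719 with the block within or across days alone. Beyond these values, the pairing by replicate number moved no call count from the unblocked fit by over 1.5 times.

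Under the GC offset Gars1 in KO over time turned to 0.12 (0.18 with the block across days), Nars2 to 0.0093 with that block, and Yars2 at D2 to 0.015, 0.0069 (block within a day) and 0.012 (across days). The cause of these changes was not tested.

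Leaving out 1 library, the counts in WT ranged from 15 to 19 cytosolic and 3 to 5 mitochondrial genes higher and 0 to 2 mitochondrial lower, with medians of 1.21 to 1.48 and 0.17 to 0.38. In KO they ranged from 16 to 17 and 3 to 4 higher and 0 to 2 and 6 to 7 lower, with medians of 1.21 to 1.32 and -0.42 to -0.22. Over all genes, in fits that kept 2 WT D0 libraries, 3272 to 3716 rose and 3290 to 3953 fell in WT. In KO 3133 to 3656 rose and 4404 to 5006 fell in those fits. For KO against WT at D2 the counts were 2 to 2 cytosolic and 4 to 7 mitochondrial genes lower, with medians of -0.05 to 0.03 and -0.45 to -0.22. For the difference they were 0 to 2 and 0 to 5 lower, with medians of -0.15 to 0.06 and -0.46 to -0.20. Over all genes, in fits that kept 2 WT D0 libraries, 1483 to 2176 were lower at D2. For the difference 113 to 1404 were lower, so the counts over all genes varied widely too.

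The precision is limited by 2 or 3 libraries a group. Leaving out a WT D0 library leaves 1 in that group.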
